A study of Mus musculus with 18 samples.

Results

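The 71 genes described here had their highest RNA level at the pre-neutrophil (preNeu) stage of mouse neutrophil formation. They were chosen from the RNA-seq table by value: a transcript listed as protein-coding, a mean preNeu level of at least 20 TPM (a transcript level corrected for length and scaled to the same total in every library), and a mean at least 4 times that of both granulocyte-monocyte progenitors (GMP) and mature neutrophils (matNeu). Of 19580 protein-coding genes in a table of 34896 genes, 78 met these values. Of these, 7 were left out by name (*Fcnb*, *Slc6a12*, *Ngp*, *Ltf*, *Camp*, *Chil3* and *Cebpe*), together with every gene whose symbol starts with Hist, Slc or Zfp. Because the levels in preNeu cells chose the genes, their rise and fall around this stage is a description and carries no test.

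The study asked how the repressor GFI1 and CHD4, the ATPase of the NuRD chromatin remodelling complex, act on chromatin in neutrophil formation. All cells were sorted from bone marrow of adult C57BL/6 mice aged 6-12 weeks, either wild type (WT) or *Gfi1*-/-. RNA-seq covered the 3 WT cell types, GMP, preNeu and matNeu, in triplicate. ChIP-seq, which lists the places on the genome recovered with an antibody, covered CHD4 in WT and in *Gfi1*-/- GMPs and dimethylated histone H3 lysine 4 (H3K4me2) in WT GMP, preNeu and matNeu cells, with 1 library each. GMPs were sorted as lineage-negative cells with cKIT, CD16/32 and CD34 but without SCA, preNeu cells as MAC-1 and GR1 positive cells with cKIT and CXCR4, and matNeu cells as MAC-1 and GR1 positive cells with CXCR2. Marrow of several bones was pooled before sorting, and the sources used here do not say whether the 3 RNA libraries of a cell type came from separate animals, so that p-values measure the spread between these libraries. RNA-seq of *Gfi1*-/- cells was not analysed here, and the peak lists give no check of the deletion.

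For 13 of the 18 samples of the series, among them all RNA-seq libraries and the H3K4me2 libraries of preNeu and matNeu cells, the title and the cell type field of the labels disagree; titles were followed, and the RNA-seq libraries were compared with markers of the cell types. The summed level of 7 GMP markers (*Cd34*, *Kit*, *Mpo*, *Elane*, *Prtn3*, *Ctsg* and *Flt3*) was 45281 to 47165 TPM in GMPs, 8322 to 9362 TPM in preNeu cells and 10.1 to 33.2 TPM in matNeu cells. For 8 preNeu markers, among them the granule genes *Ltf*, *Camp* and *Ngp*, it was 492 to 508 TPM, 142961 to 165388 TPM and 2270 to 4167 TPM, and for 9 matNeu markers, among them *Cxcr2* and *Il1b*, 733 to 853 TPM, 1088 to 1236 TPM and 34805 to 39506 TPM. Each list was thus highest in the cells of its name in all 3 libraries. The H3K4me2 lists allow no such check, and their cell types rest on the titles. The sequencing depth is unknown, since TPM and peak lists do not keep it.

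Neutrophils are made in the bone marrow from GMPs, which still divide and fill the first, azurophil granules with proteases. At the preNeu stage the cells divide for the last time and make the proteins of the secondary granules, and the mature cells that follow have left the cell cycle and carry the machinery for migration and killing. H3K4me2 marks active and poised promoters and enhancers, and CHD4 moves nucleosomes as part of a complex that also removes acetyl groups from histones.

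The chromatin data are easiest to follow on the sequences themselves. Shown first are the centres (150 bases around the summit, plus strand, GRCm38) of 3 of the strongest CHD4 peaks of WT GMPs at these genes, each of which overlapped a peak in *Gfi1*-/- GMPs. They lie in an intron of *Olr1* at chr6:129499639-129499788, upstream of *Serpinb10* at chr1:107525742-107525891 and in an intron of *Gas7* at chr11:67480752-67480901. Capitals mark the letters searched on both strands: TTGCNNAA for C/EBP factors (at *Olr1*, positions 78 to 85), TGTGGT for RUNX factors (at *Serpinb10*, positions 8 to 13, and at *Gas7*, positions 84 to 89) and AAATCA for GFI1 (at *Gas7*, positions 49 to 54). GAGGAA, for PU.1, was also searched and is not in these windows.
Olr1 peak: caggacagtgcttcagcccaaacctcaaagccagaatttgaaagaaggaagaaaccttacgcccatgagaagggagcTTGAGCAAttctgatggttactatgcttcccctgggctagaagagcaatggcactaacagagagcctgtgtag
Serpinb10 peak: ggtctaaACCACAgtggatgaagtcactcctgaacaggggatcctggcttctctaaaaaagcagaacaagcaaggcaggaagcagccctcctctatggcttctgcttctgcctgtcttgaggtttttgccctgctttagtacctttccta
Gas7 peak: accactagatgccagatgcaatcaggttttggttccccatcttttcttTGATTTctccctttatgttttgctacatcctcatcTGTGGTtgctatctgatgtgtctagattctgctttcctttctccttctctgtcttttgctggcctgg

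Shown next are the 250 bases before the start of 3 genes that differ in pattern, from RefSeq (GRCm38.p6) and written on the strand of the gene. These are *Cybb* (chrX:9469325-9469574, minus strand), which is among the most abundant, *Inhba* (chr13:16011601-16011850, plus strand), which is close to absent before and after the preNeu stage, and *Olr1* (chr6:129507166-129507415, minus strand), which has the strongest CHD4 peak. Capitals mark TGTGGT and CCAAT in *Cybb*, TATAAA and the C/EBP letters in *Inhba*, and the GFI1 letters, CCAAT and the PU.1 letters in *Olr1*.
Cybb promoter: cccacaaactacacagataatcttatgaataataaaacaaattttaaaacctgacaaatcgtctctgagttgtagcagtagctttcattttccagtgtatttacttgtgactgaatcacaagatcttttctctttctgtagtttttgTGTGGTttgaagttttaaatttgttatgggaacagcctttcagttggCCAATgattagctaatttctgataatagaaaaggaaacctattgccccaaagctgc
Inhba promoter: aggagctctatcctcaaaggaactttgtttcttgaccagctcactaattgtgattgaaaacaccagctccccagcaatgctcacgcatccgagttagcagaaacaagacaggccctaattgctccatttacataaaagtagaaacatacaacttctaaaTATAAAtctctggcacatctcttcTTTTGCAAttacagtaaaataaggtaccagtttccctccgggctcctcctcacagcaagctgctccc
Olr1 promoter: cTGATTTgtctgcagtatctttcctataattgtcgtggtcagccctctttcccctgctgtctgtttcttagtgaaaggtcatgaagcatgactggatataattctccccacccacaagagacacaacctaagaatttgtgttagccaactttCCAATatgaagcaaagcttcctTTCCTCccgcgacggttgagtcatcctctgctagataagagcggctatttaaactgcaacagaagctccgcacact

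As a group the genes rose from 0.356 to 0.423% of all TPM in the GMP libraries to 2.34 to 2.39% in the preNeu libraries and were at 0.267 to 0.334% in the matNeu libraries. The median gene had 7.36 TPM in GMP, 81.6 TPM in preNeu and 6.55 TPM in matNeu cells. For each of the 71 genes the lowest preNeu library lay above the highest library of the other cell types, and for 38 of them by 4 times or more. The rule used the means of these same libraries, so that this separation was largely set by the choice of the genes. The preNeu mean was 4.04 to 510 times the larger of the other means, with a median of 5.73 times, at least 10 times in 15 genes and less than 5 times in 26. Replicates were close: the 3 preNeu libraries lay within 2-fold of each other for 68 genes. The coefficient of variation was taken over the genes with a mean of at least 1 TPM in the stage. Its median was 11.9% in preNeu cells (71 genes), 26.3% in GMPs (60 genes) and 23.7% in matNeu cells (60 genes). The preNeu 3 library was the highest for 38 of the genes, preNeu 2 for 20 and preNeu 1 for 13. In such bulk samples a smaller number of cells of a type and less RNA per cell cannot be told apart.

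**Figure D1:**
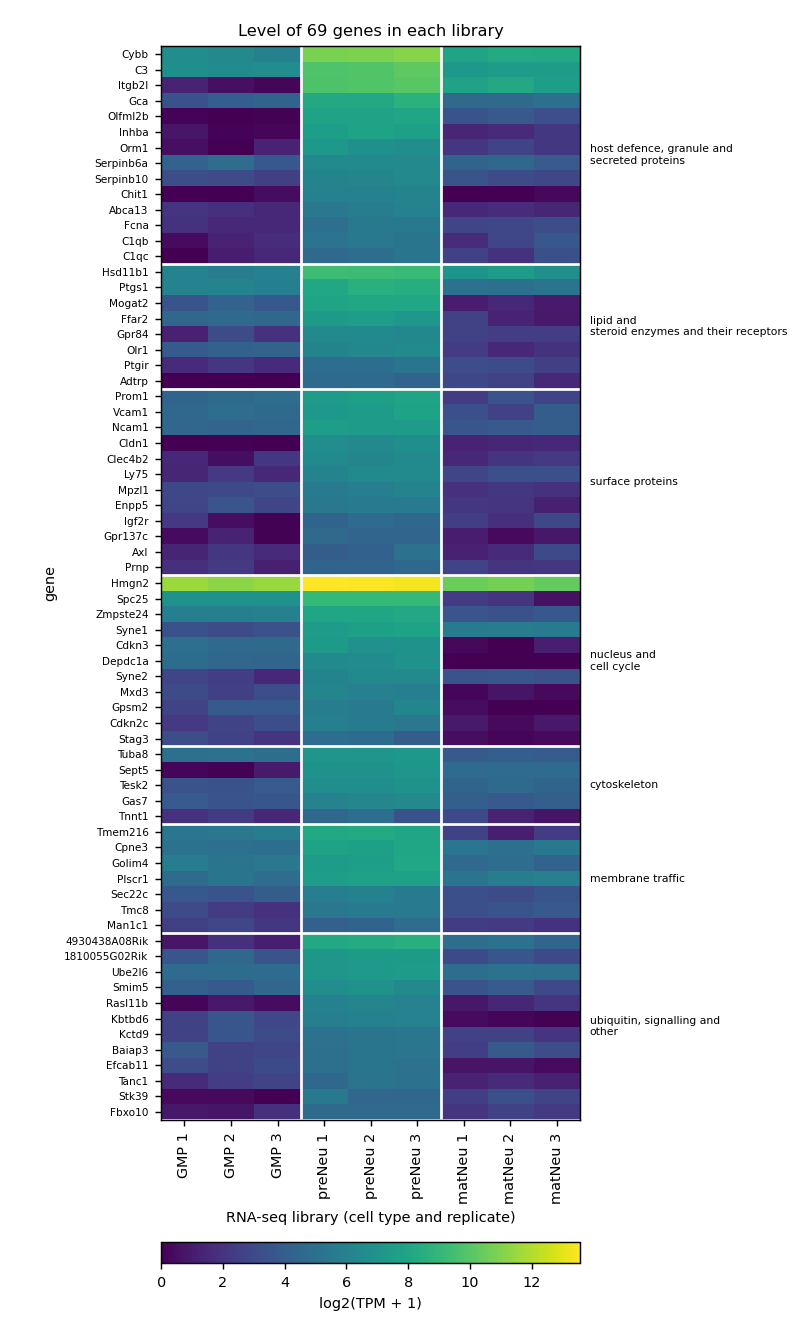
Level of 69 of the 71 genes (rows, by function group) in each of the 9 RNA-seq libraries (columns), as log2(TPM + 1) on the colour scale. In every row the 3 preNeu columns are the brightest, while the GMP and matNeu columns differ in order from gene to gene.

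Genes close to the limits show what the rule kept and left. Just inside the 4-fold limit were *Itgb2l* (4.04 times), *Baiap3* and *Hmgn2* (both 4.13 times), and just outside were *Gm10282* (3.99 times), *Hvcn1* (3.93 times) and *Arhgap19* (3.899 times). Just inside the limit of 20 TPM were *Tnnt1* (20.3 TPM), *Prnp* (20.7 TPM) and *Man1c1* (21.3 TPM), and just outside were *Pcbd2* (19.3 TPM), *Chil4* (17.2 TPM) and *Lima1* (17.1 TPM). The table lists 1 transcript type per gene, and 8 genes that met the values were listed under another type. Of these, 4 are protein-coding genes in the GENCODE annotation: *Agpat2*, *Vcl*, *Ets1* and *Sept1*, with preNeu means of 636, 175, 133 and 131 TPM. They are not among the 71.

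The order of the 2 low stages was not fixed by the rule and was tested with limma over the 13061 genes that reached 1 TPM in 3 or more libraries. The rule did cap both levels against the preNeu mean, and so left out genes that are high in GMPs or in matNeu cells. The comparison with all genes is therefore shaped in part by the choice of the 71. Of the 71 genes, 26 were higher in matNeu cells than in GMPs, beside 22.8% of all genes tested, 29 were lower, beside 54.1% of all genes, and 16 did not pass the threshold. The median difference, matNeu minus GMP on the log2(TPM + 1) scale, was 0.10 for the 71 genes and -0.92 for all genes. This shift of all genes depends on the scaling: after TMM scaling, which sets libraries against each other by their typical gene, it was -0.18. The median of the 71 genes was then 0.82, with 34 genes higher (34.8% of all genes), 17 lower (41.5%) and 20 without a call. The 26 genes higher as deposited were among these 34, and the 17 lower ones were among the 29 as deposited. No gene changed from lower to higher. The share of calls that were higher was 47.3% for the 71 genes and 29.6% for all genes as deposited, and 66.7% and 45.6% after TMM scaling. With 3 libraries against 3 an exact permutation test of a single gene cannot go below p = 0.1.

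**Figure D2:**
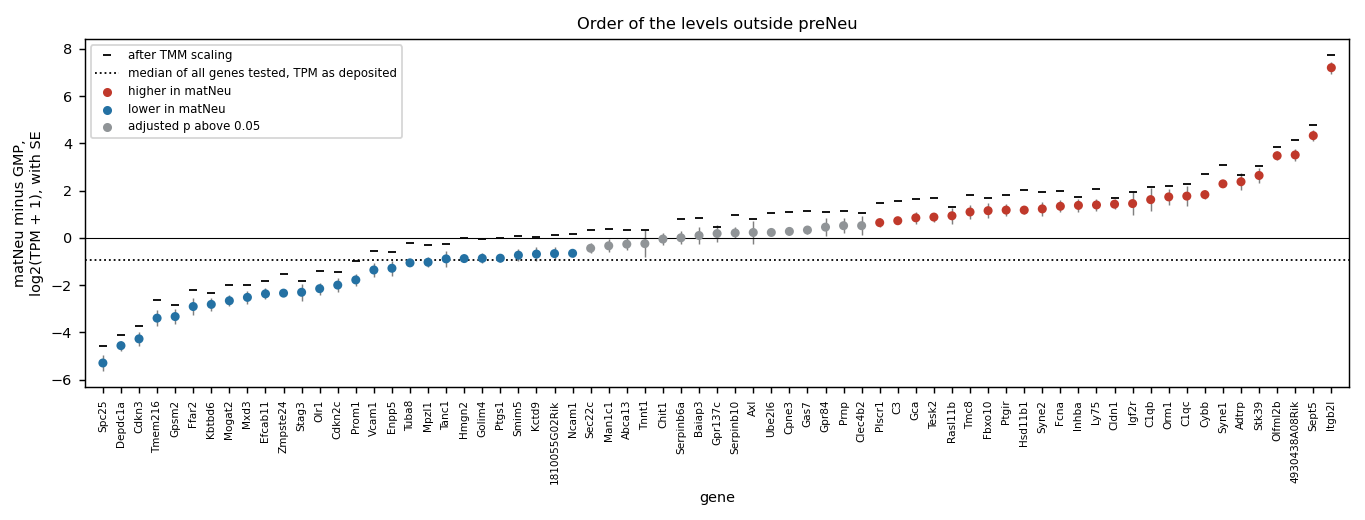
Difference between matNeu and GMP cells for 69 of the 71 genes, on the log2(TPM + 1) scale, with the standard error from limma (n = 3 libraries per cell type) and, as dashes, the same difference after TMM scaling. The values run from -5.29 for Spc25 to 7.21 for Itgb2l, the dotted line at -0.92 is the median of all genes tested, and most dashes lie above their points.

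The largest group, 15 genes, holds host defence, granule and secreted proteins. Of these 10 were higher in matNeu cells than in GMPs (12 after TMM scaling), 1 was lower and 4 had no call. Calls in this and the following groups stand beside 22.8% higher and 54.1% lower among all genes tested (34.8% and 41.5% after TMM scaling). *Cybb* (ENSMUSG00000015340), the membrane subunit of the phagocyte NADPH oxidase, had 98.6, 81.5 and 61.3 TPM in the GMP libraries, 1838, 1886 and 2171 TPM in the preNeu libraries, and 239, 317 and 303 TPM in the matNeu libraries. All 3 matNeu libraries lay above all 3 GMP libraries, and the difference was 1.83 ± 0.18 (SE) on the log2(TPM + 1) scale, with limma adjusted p = 2.66e-06. Mature cells thus kept a higher *Cybb* level than GMPs, although the preNeu mean was 6.86 times that of matNeu cells.

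*C3* (ENSMUSG00000024164), the central protein of the complement cascade, had 108, 92.6 and 99.1 TPM in GMP, 915, 957 and 1183 TPM in preNeu, and 149, 176 and 175 TPM in matNeu libraries. The outer stages did not overlap and differed by 0.73 ± 0.13 (SE), limma adjusted p = 0.000394. *Itgb2l* (ENSMUSG00000000157), a relative of the leukocyte integrin beta chain, had 1.42, 0.458 and 0.141 TPM in GMP, 879, 951 and 1048 TPM in preNeu, and 228, 293 and 191 TPM in matNeu libraries. It was close to absent in GMPs only, and its difference of 7.21 ± 0.26 (SE) was the largest rise among the 71 genes on the log2(TPM + 1) scale (limma adjusted p = 1.53e-09). *Gca* (ENSMUSG00000026893), the calcium-binding protein grancalcin, had 9.57, 15.4 and 19.4 TPM in GMP, 286, 287 and 408 TPM in preNeu, and 24.6, 24.5 and 30.7 TPM in matNeu libraries. Its outer stages did not overlap, with a difference of 0.85 ± 0.24 (SE) and limma adjusted p = 0.00796.

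Some genes of this group were listed at or near 0 TPM in GMPs. *Chit1* (ENSMUSG00000026450), the chitinase chitotriosidase, was listed at 0, 0 and 0.372 TPM in GMP, at 62.5, 61.1 and 66.3 TPM in preNeu, and at 0, 0 and 0.241 TPM in matNeu libraries. Its preNeu mean was 510 times that of GMPs, the larger of its other means. By the ratio to the larger mean it ranked first among the 71 genes, but this rests on GMP libraries that are listed at or near 0. *Inhba* (ENSMUSG00000041324), the subunit that forms the secreted factor activin A, had 0.783, 0.101 and 0.119 TPM in GMP, 185, 236 and 201 TPM in preNeu, and 1.75, 2.03 and 3.62 TPM in matNeu libraries, so that the preNeu mean was 84.2 times that of matNeu cells. The low stages did not overlap (difference 1.38 ± 0.28, SE, limma adjusted p = 0.00105). *Orm1*, the acute-phase carrier protein orosomucoid, and *Olfml2b*, a secreted olfactomedin-domain protein, were similar, with preNeu means of 120.3 and 237 TPM, 27.8 and 22.0 times those of matNeu cells. *Abca13*, a very large lipid transporter, had 51.8 TPM in preNeu cells and 2.60 and 1.98 TPM in GMP and matNeu cells. The protease inhibitors *Serpinb6a* and *Serpinb10* were present in all stages: *Serpinb6a* had 19.5, 86.8 and 19.1 TPM in GMP, preNeu and matNeu cells and *Serpinb10* 6.89, 73.6 and 8.14 TPM, and the outer stages of both overlapped.

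The group also holds *C1qb* and *C1qc*, chains of complement C1q, and *Fcna*, a plasma ficolin, with preNeu means of 37.5, 30.0 and 39.4 TPM. These are also known as products of macrophages, as is *Vcam1*. The 6 macrophage markers *C1qa*, *C1qb*, *C1qc*, *Vcam1*, *Cd5l* and *Adgre1* summed to 38.7 to 45.6 TPM in GMP, 248 to 373 TPM in preNeu and 101 to 145 TPM in matNeu libraries, and 5 of the 6 had their highest mean in preNeu cells. The exception was *Adgre1*, a general macrophage antigen of the mouse, with 11.4 TPM in preNeu and 83.8 TPM in matNeu cells, and none of the 6 was at 0 in preNeu cells. Of the 6 markers, 3 (*C1qb*, *C1qc* and *Vcam1*) are among the 71 genes. The rule itself thus fixed their preNeu peak and their part of the preNeu sum. For *C1qc* the libraries read 0, 1.15 and 1.91 TPM in GMP, 23.5, 28.9 and 37.5 TPM in preNeu, and 5.30, 2.99 and 8.88 TPM in matNeu cells. *Axl*, a receptor tyrosine kinase of cells that clear dying cells, had 14.8, 17.8 and 33.6 TPM in the preNeu libraries. The summed level of 6 monocyte markers was lowest in preNeu cells, 40.7 to 68.2 TPM against 1946 to 2339 TPM in GMP and 267 to 381 TPM in matNeu libraries. The part of macrophages in the levels of *C1qb*, *C1qc*, *Fcna*, *Vcam1* and *Axl* was not tested.

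A group of 8 genes codes for enzymes of lipid and steroid metabolism and for receptors of their products. In matNeu cells 3 were higher than in GMPs (4 after TMM scaling), 4 were lower (3 after TMM scaling) and 1 had no call. *Hsd11b1* (ENSMUSG00000016194), which regenerates active glucocorticoid inside cells, had 65.6, 53.1 and 61.5 TPM in GMP, 647, 625 and 590.1 TPM in preNeu, and 129.8, 181 and 109 TPM in matNeu libraries. The stages did not overlap, and matNeu cells exceeded GMPs by 1.18 ± 0.17 (SE), limma adjusted p = 8.86e-05. *Ptgs1* (ENSMUSG00000047250), the constitutive cyclooxygenase, had 62.7, 66.9 and 56.9 TPM in GMP, 277, 385 and 347 TPM in preNeu, and 34.2, 30.7 and 36.7 TPM in matNeu libraries. Its difference of -0.86 ± 0.15 (SE, limma adjusted p = 0.000318) was close to the median of all genes, and after TMM scaling it was -0.01 (limma adjusted p = 0.923). *Mogat2*, a monoacylglycerol acyltransferase, had 260.3 TPM in preNeu cells, 13.6 TPM in GMPs and 1.29 TPM in matNeu cells.

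The receptors of this group differed in the same way. *Ffar2*, the receptor for short-chain fatty acids, had 22.6, 170 and 2.63 TPM in GMP, preNeu and matNeu cells, and *Olr1*, the receptor for oxidised low-density lipoprotein, 16.6, 77.3 and 3.07 TPM. Both were lower in matNeu cells than in GMPs, by -2.90 ± 0.37 and -2.15 ± 0.25 (SE). *Gpr84*, the receptor for medium-chain fatty acids, had 3.87, 84.1 and 4.82 TPM, and its outer stages overlapped. *Ptgir*, the prostacyclin receptor, and *Adtrp*, a hydrolase of fatty acid esters, reached 31.2 and 22.2 TPM in preNeu cells, and *Adtrp* was listed at 0 in all GMP libraries.

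Surface proteins made up 13 genes, of which 3 were higher, 6 lower and 4 without a call in matNeu cells against GMPs (5, 2 and 6 after TMM scaling). *Cldn1* (ENSMUSG00000022512), a tight junction protein, had 0, 0.0404 and 0 TPM in GMP, 98.1, 82.8 and 108 TPM in preNeu, and 1.58, 1.73 and 1.88 TPM in matNeu libraries, and its preNeu mean was 55.6 times that of matNeu cells. The adhesion molecules *Ncam1* and *Vcam1* and the stem cell antigen *Prom1* had preNeu means of 179, 186 and 210 TPM, and all had more RNA in GMPs (21.0, 24.9 and 24.4 TPM) than in matNeu cells (13.1, 9.81 and 6.69 TPM), with limma adjusted p of 0.00182, 0.00193 and 8.94e-05. Of these, *Prom1* kept its call after TMM scaling. The others were the lectin receptors *Clec4b2* and *Ly75*, the mannose-6-phosphate receptor *Igf2r*, the prion protein gene *Prnp*, *Axl*, *Mpzl1*, *Enpp5* and *Gpr137c*, with preNeu means of 20.7 to 81.6 TPM.

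The 11 genes of the nucleus and cell cycle were mostly lower in mature cells: 9 were lower than in GMPs (8 after TMM scaling) and 2 were higher. Among all genes tested 54.1% were lower (41.5% after TMM scaling). *Hmgn2* (ENSMUSG00000003038), a nucleosome-binding protein, was by far the most abundant of the 71. It had 3007, 2359 and 2830 TPM in GMP, 12172, 11526 and 10183 TPM in preNeu, and 1488, 1734 and 1265 TPM in matNeu libraries. The outer stages did not overlap as deposited (-0.87 ± 0.14, SE, limma adjusted p = 0.00016), but the difference was -0.01 after TMM scaling. *Spc25* (ENSMUSG00000005233), a part of the kinetochore, had 126, 121 and 122 TPM in GMP, 537, 554 and 538 TPM in preNeu, and 4.12, 3.12 and 0.510 TPM in matNeu libraries. Its fall of -5.29 ± 0.36 (SE, limma adjusted p = 1.58e-07) was the largest of the 71 genes on the log2(TPM + 1) scale. With 0.1 added to the TPM in place of 1 it was -5.93, a smaller fall than those of *Depdc1a* (-7.82) and *Cdkn3* (-6.23).

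The cell cycle phosphatase *Cdkn3* (ENSMUSG00000037628) had 29.9, 23.6 and 24.8 TPM in GMP, 169, 117 and 118 TPM in preNeu, and 0.211, 0 and 1.24 TPM in matNeu libraries (difference -4.27 ± 0.30, SE, limma adjusted p = 2.17e-07). *Depdc1a* (ENSMUSG00000028175), which peaks in mitosis, had 26.6, 21.4 and 20.1 TPM in GMP, 87.9, 90.9 and 119 TPM in preNeu libraries and was listed at 0 in all 3 matNeu libraries, with a fitted difference of -4.56 ± 0.21 (SE, limma adjusted p = 8.27e-09) that depends on the pseudocount of 1. *Mxd3*, a partner of MAX, the spindle orientation gene *Gpsm2*, the CDK inhibitor *Cdkn2c* and the cohesin subunit *Stag3* had preNeu means of 61.7, 58.0, 48.7 and 23.6 TPM, and each was below 1 TPM in matNeu cells. *Zmpste24*, the protease that matures lamin A, fell from 58.3 TPM in GMPs and 268 TPM in preNeu cells to 10.8 TPM. The exceptions were *Syne1* and *Syne2*, which code for nesprins that tie the nucleus to the cytoskeleton. *Syne1* had 9.80, 7.98 and 9.19 TPM in GMP, 174, 208 and 230.2 TPM in preNeu, and 47.7, 50.0 and 45.5 TPM in matNeu libraries, a rise between the outer stages of 2.29 ± 0.15 (SE, limma adjusted p = 1.41e-07), and *Syne2* rose by 1.23 ± 0.30 (SE).

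Of the 5 cytoskeletal genes, *Sept5* (ENSMUSG00000072214), a septin, had 0.133, 0.0646 and 0.984 TPM in GMP, 126, 127 and 137 TPM in preNeu, and 25.8, 25.9 and 26.0 TPM in matNeu libraries. Its rise of 4.33 ± 0.24 (SE, limma adjusted p = 3.72e-08) was the second largest of the 71 on the log2(TPM + 1) scale. The others were the tubulin *Tuba8*, the cofilin kinase *Tesk2*, *Gas7*, which binds actin and membranes, and the troponin gene *Tnnt1*, at 142, 107, 75.1 and 20.3 TPM in preNeu cells. In all, 2 of the 5 were higher and 1 lower in matNeu cells than in GMPs (3 and 0 after TMM scaling). Membrane traffic was represented by 7 genes at 21.3 to 285 TPM: *Tmem216*, a protein of the base of cilia, the copine *Cpne3*, the Golgi proteins *Golim4* and *Man1c1*, the phospholipid scramblase *Plscr1*, *Sec22c* of the early secretory pathway and *Tmc8*. Here 2 were higher, 2 lower and 3 without a call (3 higher and 1 lower after TMM scaling), and *Tmem216* had the largest difference (-3.39 ± 0.34, SE, limma adjusted p = 4.13e-06).

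The last 12 genes were of mixed function, with 4 higher, 6 lower and 2 without a call, but 5 higher and 2 lower after TMM scaling. The uncharacterised gene *4930438A08Rik* (ENSMUSG00000069873) had 0.754, 2.49985 and 1.24 TPM in GMP, 296, 326 and 358 TPM in preNeu, and 27.8, 32.7 and 20.1 TPM in matNeu libraries. Its rise of 3.51 ± 0.26 (SE, limma adjusted p = 3.78e-07) was the third largest on the log2(TPM + 1) scale. The 1 added to each TPM shrinks the rises of genes near 0 in GMPs, such as *Olfml2b* (0.0485 TPM in GMPs and 10.8 TPM in matNeu cells). *Rasl11b* (ENSMUSG00000049907), a small GTPase, had 0.188, 0.911 and 0.372 TPM in GMP, 62.1, 71.1 and 63.0 TPM in preNeu, and 0.840, 1.78 and 3.29 TPM in matNeu libraries. Its low stages overlapped, and the difference of 0.94 ± 0.33 (SE, limma adjusted p = 0.0231) did not hold without GMP 1, GMP 3 or matNeu 3 (0.79, 0.89 and 0.63, adjusted p = 0.0741, 0.0562 and 0.0916). The group further held *Ube2l6*, which conjugates ISG15, the ubiquitin ligase adaptors *Kbtbd6*, *Kctd9* and *Fbxo10*, the kinase *Stk39*, which acts on ion transporters, *Baiap3*, *Tanc1*, *Efcab11*, *Smim5* and the uncharacterised *1810055G02Rik*. Their preNeu means ran from 24.1 TPM for *Fbxo10* to 160.1 TPM for *1810055G02Rik*.

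Lists of genes with known roles place the 71 in the programmes of these cells. Their calls, too, stand beside 22.8% higher and 54.1% lower among all genes tested. Of 33 granule proteins of neutrophils, 31 were tested, 26 were higher and 4 lower in matNeu cells than in GMPs, and 16 had their highest mean in preNeu cells. Of these 16, *Orm1*, *Itgb2l*, *Cybb* and *Abca13* are among the 71. *Ltf*, *Camp*, *Ngp*, *Chil3* and *Fcnb* met the values and were left out by name, with preNeu means of 25388, 10208, 71395, 40629 and 3828 TPM against 6.13, 1.52, 10.8, 45.4 and 37.0 TPM in GMPs and 467, 92.9, 2283, 200.1 and 5.90 TPM in matNeu cells. The others stayed nearer to their preNeu level in mature cells or were already on in GMPs: the means in GMP, preNeu and matNeu cells were 11.5, 8892 and 2611 TPM for *Lcn2*, 6.43, 4674 and 1564 TPM for *Cd177*, 0.421, 324 and 126 TPM for *Olfm4*, 2.86, 501 and 252 TPM for *Wfdc21*, 456, 6913 and 3205 TPM for *Anxa1*, 822, 31557 and 30183 TPM for *Lyz2* and 484, 1829 and 79.5 TPM for *Serpinb1a*. Of 26 genes of G2 and M phase, all had their highest mean in preNeu cells and 25 were lower in matNeu cells than in GMPs, but none was 4 times above GMPs. The 24 S phase genes were all lower in matNeu cells, and 5 of them were highest in preNeu cells. Azurophil granule proteins (7 of 8 lower), chaperones of the endoplasmic reticulum (17 of 18 lower) and heme synthesis (7 of 8 lower) had no gene with its highest mean in preNeu cells. Of 14 transcription factors of granulopoiesis, 5 were higher and 8 lower in matNeu cells, and *Cebpe* (525 TPM in preNeu cells, 31.2 TPM in GMP and 44.3 TPM in matNeu cells) and *Ets1* met the values.

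Some of the 71 share sequence with other genes, so that reads could be assigned to either. Words of 31 bases from their transcripts were searched in all other genes. At least 10% were shared in 13 genes and none in 30. The share was 82.3% for *Sept5* (mainly with *Gm49601*), 64.9% for *Depdc1a* (with *Gm5596*) and 46.5% for *Hmgn2* (spread over 29 genes, mainly *Gm10282*). It was 38.5% for *Gpr84*, 27.5% for *Orm1* (with *Orm2*) and 21.0% for *Gca*. The levels of these genes are thus less certain, but the share does not measure the size of an error. *Orm2* had 2.45 TPM in preNeu and 14.5 TPM in matNeu cells, an order opposite to that of *Orm1*.

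CHD4 in WT GMPs, the stage before these genes rise, was found at many of them. A promoter ran from 2 kb before to 500 bp after the start of the gene in the GENCODE M21 annotation. A CHD4 peak overlapped 18 of the 71 promoters, or 25.4% (16.7 to 36.6%; here and below the range in brackets is the Wilson interval at 95%, for counting error alone), beside 8.64% of 19540 protein-coding genes. Among genes with at least 20 TPM in preNeu cells the share was 31.4% of 204 genes that rose 4-fold from GMPs but did not fall 4-fold to matNeu cells (induced and kept), 8.65% of 1110 genes that fell without the rise (on in GMP, low in matNeu), and 14.1% of 3168 others. Within the gene or 10 kb of it, CHD4 was found at 45 of the 71 (63.4%, 51.8 to 73.6%), beside 32.1% of all genes, 67.2% of the induced and kept, 36.1% of those on in GMP and 46.2% of the others. Gene length can enter such a share: the median length was 22.5 kb for the 71 genes, 15.4 kb for the induced and kept, 19.6 kb for those on in GMP and 16.5 kb for all. Each share comes from 1 library, and no test was made.

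The list of *Gfi1*-/- GMPs was shorter, with 7316 peaks against 35790 in WT GMPs, and the depth behind either list is unknown. CHD4 was then found at 4 of the 71 promoters (5.63%, 2.21 to 13.6%), beside 1.70% of all genes, and within 10 kb at 19 (26.8%, 17.9 to 38.1%), beside 10% of all genes and 24.0% of the induced and kept. Of the 71 genes, 19 had CHD4 in both genotypes, 26 in WT only, 26 in neither and 0 in *Gfi1*-/- only. By peak, 43 of the 223 WT peaks at these genes overlapped a *Gfi1*-/- peak (19.3%, 14.6 to 24.96%), close to the 18.5% of all WT peaks. The kept peaks were the strong ones: their median fold enrichment in WT GMPs was 22.6, against 6.98 for those not kept, and 21.2 against 6.83 over all peaks. All 14 genes whose strongest WT peak reached 20-fold had a kept peak, and 1 of the 23 genes whose strongest peak was under 15-fold had one. In the other direction, 46 of 47 *Gfi1*-/- peaks at the 71 genes overlapped a WT peak, the exception being an intronic peak of *Tanc1*. When the WT list was restricted to as many peaks as the *Gfi1*-/- list, those of best q-value, 73.5% of 49 peaks at these genes were kept, beside 72.7% of all. The study counted far fewer CHD4 peaks in WT GMPs than this list holds. It reported that most sites shared with GFI1 lost CHD4 without GFI1, while sites of CHD4 alone largely kept it. The kept shares given here are of another set of peaks and are not those of the study.

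**Figure D3:**
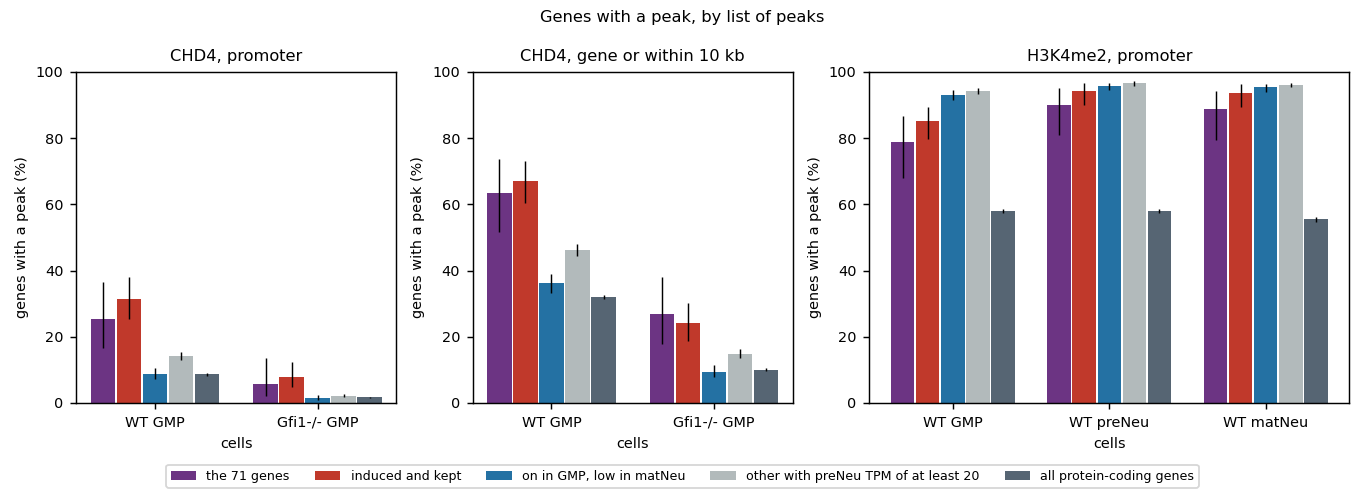
Share of genes with a peak (%) in the promoter or within 10 kb for CHD4 and in the promoter for H3K4me2, for the 71 genes, the 3 classes of other genes with preNeu TPM of at least 20, and all protein-coding genes. Bars are shares in 1 library each and lines are 95% Wilson intervals; for CHD4 the 71 genes stand near the induced and kept genes, and for H3K4me2 in GMPs they are below the other classes with preNeu TPM of at least 20.

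Most of the 223 WT peaks lay in introns (143), with 24 at promoters, 21 further upstream, 23 downstream, 8 in UTRs and 4 in other exons. The strongest was in an intron of *Olr1* (chr6:129499283-129500333, sequence above), 7.45 kb after the start, with a fold enrichment of 76.1 in WT and 28.7 in the overlapping *Gfi1*-/- peak. Next came a peak 3.19 kb before *Serpinb10* (chr1:107525546-107526179; 63.9 and 12.2 in the 2 lists), an intronic peak of *Gas7* (chr11:67480177-67481247; 59.6 and 21.1), one of *Efcab11* (chr12:99789133-99790084; 42.5 and 8.05) and one of *Abca13* (chr11:9530853-9532538; 37.0 and 14.7). Fold enrichments of the lists are not on a common scale. *Gas7* had the most WT peaks, 24, of which 8 were kept, followed by *Abca13* (3 of 16), *Cybb* (5 of 15), *Olr1* (5 of 10) and *Adtrp* (1 of 10). *Serpinb10* kept 4 of 5.

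At promoters, CHD4 of *Gfi1*-/- GMPs was listed at *Abca13* (fold enrichment 5.55), *Olr1* (7.15), *Gpr84* (7.37 and 5.83) and *Serpinb10* (11.4 and 4.99). In WT GMPs the peaks at these promoters had 11.2, 16.2, 31.3 and 34.3. *Vcam1* had 3 promoter peaks in WT GMPs, the strongest with 15.5, and none in *Gfi1*-/- GMPs. The start used is that of the whole gene model, and other transcripts of a gene can start elsewhere. At *Cybb*, a WT peak at chrX:9468981-9469609 (fold enrichment 22.6, 7.77 in *Gfi1*-/- GMPs) lay 38 bp from a transcript start 18.5 kb inside the gene model, and spanned the promoter shown above. With the start of any protein-coding transcript, an alternative chosen after seeing the data, the promoters with CHD4 were 22 in WT (30.99%, beside 10.8% of all genes) and 7 in *Gfi1*-/- GMPs (9.86%, beside 2.22%), with *Cybb*, *Gas7* and *Hsd11b1* added to the latter. *Itgb2l*, *Hmgn2*, *Spc25*, *Chit1* and *Sept5* had no CHD4 peak in either list.

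**Figure D4:**
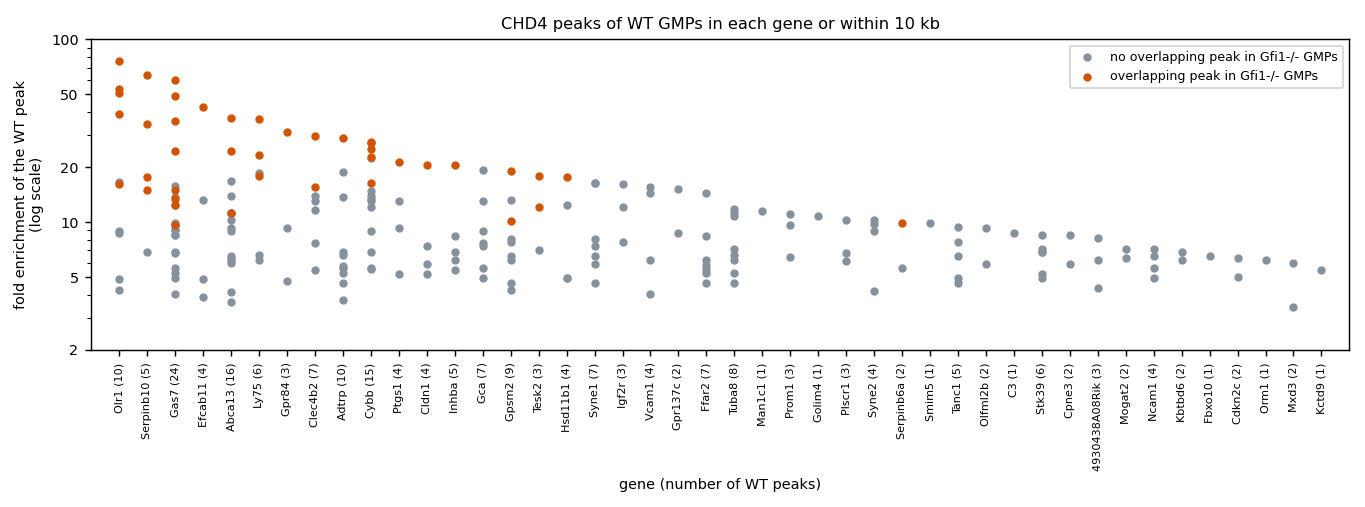
Fold enrichment (log scale) of each CHD4 peak of WT GMPs in the gene or within 10 kb, for 44 of the 45 genes with a peak, ordered by their strongest peak, with the number of peaks in brackets. Orange points overlap a peak of Gfi1-/- GMPs; they lie mostly above 10-fold and on the left, where Olr1 reaches 76.1.

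By function, CHD4 of WT GMPs was found within 10 kb of 10 of 15 host defence genes (6 in *Gfi1*-/- GMPs), 7 of 8 lipid genes (5), 8 of 13 surface genes (3), 5 of 11 nuclear and cell cycle genes (1), 3 of 5 cytoskeletal genes (2), 4 of 7 membrane traffic genes (0) and 8 of 12 others (2). The intervals of these shares overlap widely, for example 52.9 to 97.8% for the lipid genes and 21.3 to 71.99% for the nuclear genes. By the order of the outer stages, it was found at 18 of 26 genes higher in matNeu cells and 18 of 29 lower ones. For all protein-coding genes the share was 32.1% in WT and 10% in *Gfi1*-/- GMPs, and for the induced and kept 67.2% and 24.0%.

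In the 250 bases before the start, 58 of the 71 genes had a RefSeq sequence, and 14581 protein-coding genes in all. TTGCNNAA was found in 12.1% (8.98% of all), GAGGAA in 29.3% (22.1%), AAATCA in 10.3% (11.6%), TGTGGT in 19.0% (12.5%), TATAAA in 5.17% (12.4%) and CCAAT in 44.8% (36.2%). Each share of all promoters lay inside the 95% Wilson interval of the 58 genes. In the centres of the 223 CHD4 peaks the shares were 17.5% for TTGCNNAA (13.8% of all WT peaks), 43.9% for GAGGAA (39.8%), 8.07% for AAATCA (8.66%) and 19.7% for TGTGGT (19.4%). Among the 43 kept peaks AAATCA was in 4.65% (1.28 to 15.5%) and among the 180 not kept in 8.89% (5.55 to 14.0%). A match says only that the letters are there.

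H3K4me2 was present at most of these promoters before the genes rose. In GMPs 56 of 71 promoters overlapped a peak (78.9%, 68.0 to 86.8%), beside 58.0% of all protein-coding genes, 85.3% of the induced and kept and 93.2% of those on in GMP. In preNeu cells it was 64 (90.1%, 81.0 to 95.1%), beside 58.0% of all genes, 94.1% of the induced and kept and 95.8% of those on in GMP. In matNeu cells it was 63 (88.7%, 79.3 to 94.2%), beside 55.5% of all genes, 93.6% of the induced and kept and 95.4% of those on in GMP. Within the gene or 10 kb the counts were 64, 69 and 69 of 71, beside 72.1%, 72.6% and 70.5% of all genes. The shares were 96.1%, 99.5% and 99.5% of the induced and kept and 99.0%, 99.4% and 99.2% of those on in GMP. In each list the 71 genes thus had a smaller share than either of these classes. The GMP list was weaker than the others, with a median -log10 q of 2.41 against 6.96 in preNeu and 5.06 in matNeu cells. With a -log10 q of at least 5, 27 promoters of the 71 remained in GMPs, and 24.8% of all genes.

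All 3 stages were marked at 54 promoters. A further 9, or 12.7% (6.81 to 22.4%), were marked in preNeu and matNeu cells but not in GMPs, beside 9.31% of the induced and kept, 2.61% of those on in GMP and 2.43% of all genes. These were *4930438A08Rik*, *Abca13*, *Cldn1*, *Ffar2*, *Hsd11b1*, *Itgb2l*, *Orm1*, *Tnnt1* and *Vcam1*. With the start of any transcript the number was again 9, but *Ffar2* and *Hsd11b1* were then marked in all stages, and *Adtrp* and *Chit1* came in. At *Itgb2l* no H3K4me2 peak lay within 10 kb in GMPs, while the promoter peak was 7122 bp wide (fold enrichment 17.8) in preNeu cells and 7421 bp (12.6) in matNeu cells, although its RNA had fallen 4.04-fold. At *4930438A08Rik* it was 11844 bp and 11101 bp wide. At *Vcam1* the window was also free of peaks in GMPs, and the promoter peak narrowed from 12253 bp to 5164 bp. At *Cldn1* it was 5662 bp wide in preNeu and 4669 bp in matNeu cells. RNA of *Vcam1* was nonetheless listed in GMPs, at 24.9 TPM, and that of *Cldn1* and *Itgb2l* at 0.0135 and 0.672 TPM.

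Only *Axl* was marked in GMPs alone, and *Baiap3* in GMP and preNeu cells, by peaks of 584 bp or less; with the start of any transcript *Axl* was marked in all stages and *Baiap3* kept its pattern. None of the stages was marked at *Adtrp*, *C1qb*, *C1qc*, *Chit1*, *Cybb* and *Fcna*. With the start of any transcript, promoters were marked at 59, 68 and 67 genes in GMP, preNeu and matNeu cells (61.5%, 60.9% and 58.5% of all genes), and those without a mark in any stage were *C1qb*, *C1qc* and *Fcna*. At *C1qb* and *C1qc* no H3K4me2 peak was listed within 10 kb in any stage, although their preNeu means were 37.5 and 30.0 TPM. The macrophage marker values given above stand beside this, but they include *C1qb* and *C1qc* themselves, and the part of other cells was not tested.

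The width of the mark also differed between the stages. Where a promoter peak was listed, its median width for the 71 genes was 1729 bp in GMPs, 6495 bp in preNeu and 4669 bp in matNeu cells. Over all genes it was 1972, 2969 and 2371 bp. For the induced and kept genes, which stay on, it was 2123, 7845 and 8245 bp, and for those on in GMP 2390.0, 3738 and 2479 bp. The order of the stages within a class depends also on the strength of each library, while the classes can be compared within 1 list: the 71 genes had narrower peaks than the typical gene in GMPs and wider ones in preNeu and matNeu cells. No test was made, since each stage has 1 library.

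**Figure D5:**
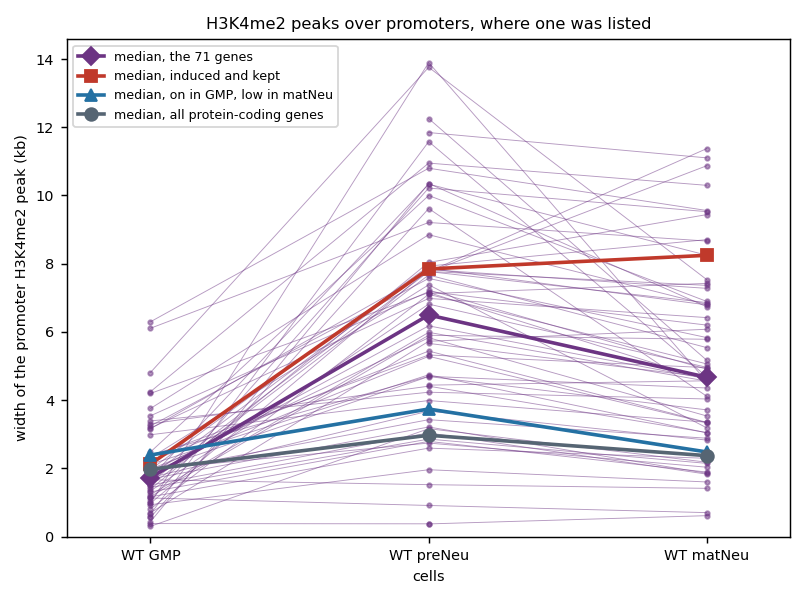
Width (kb) of the H3K4me2 peak over the promoter in GMP, preNeu and matNeu cells, where one was listed, with a thin line per gene for 69 of the 71 genes and thick lines for class medians. The median of the 71 genes rises from 1729 to 6495 bp and falls to 4669 bp, while that of the induced and kept genes is at 8245 bp in matNeu cells.

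Counted over the gene and 10 kb on either side, H3K4me2 covered a median of 4.84% of the window in GMPs, 21.1% in preNeu cells and 17.95% in matNeu cells for the 71 genes, beside 3.63%, 6.13% and 4.55% for all genes. In GMPs the 71 genes were below the other classes with preNeu TPM of at least 20. Cover there was 9.44% for the induced and kept, 8.69% for those on in GMP and 9.21% for the others. In preNeu and matNeu cells the induced and kept had more cover than the 71 genes, 33.3% and 34.6%. Those on in GMP and the others had less than the 71 genes in both later stages. The preNeu stage had the largest cover at 64 of the 71 genes (90.1%), beside 51.0% of the induced and kept, 92.3% of those on in GMP and 52.9% of all genes. Between the outer stages, 67 of the 71 had more cover in matNeu cells than in GMPs (94.4%), beside 97.5% of the induced and kept, 64.4% of those on in GMP and 48.1% of all genes. The genes lower in matNeu cells than in GMPs by RNA had a median promoter width of 1910.0 bp in GMP, 5860.0 bp in preNeu and 4093 bp in matNeu cells, and those higher 1403, 7122 and 5538 bp. *Gca* had the widest promoter peak of the preNeu list among the 71 genes, 13894 bp, against 974 bp in GMPs and 4537 bp in matNeu cells. For *C3* the widths were 2479, 9998 and 6891 bp and for *Hmgn2* 3754, 8849 and 6805 bp. For the cell cycle genes *Spc25* and *Depdc1a* they were 1689, 3211 and 1854 bp and 1731, 3677 and 2827 bp. The promoters of *Spc25* and *Depdc1a* were thus still marked in matNeu cells, where their RNA was at 2.58 and 0 TPM.

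Sites of CHD4 in GMPs were more often inside the mark in the lists of the later stages, which were also the stronger ones. Of the 223 WT summits at the 71 genes, 27.8% (22.3 to 34.0%) lay inside an H3K4me2 peak of GMPs, close to the 29.7% of all WT summits. In preNeu cells 72.2% (66.0 to 77.7%) did, beside 56.5% of all, and in matNeu cells 61.0% (54.5 to 67.2%), beside 49.1%. For the 47 summits of *Gfi1*-/- GMPs the shares were 31.9%, 87.2% and 78.7%, beside 35.3%, 65.0% and 58.7% of all. At *Cybb*, 0 of 15 WT summits were inside a peak of GMPs, 11 inside one of preNeu cells and 10 inside one of matNeu cells. The intronic peak of *Olr1* and the upstream peak of *Serpinb10* shown above were outside the mark in GMPs and inside it in both later stages, the *Gas7* peak was inside it in all 3, and the *Efcab11* peak was inside it in none.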

How the data were processed

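RNA-seq was measured in 9 WT libraries and CHD4 and H3K4me2 ChIP-seq in 5 samples. The authors deposited TPM per gene, without counts, and peak lists that give for each peak a fold enrichment (ratio) over background and a -log10 q. The submitters' processing notes name FastQC 0.11.5, MultiQC 1.6, Trimmomatic 0.36, BWA 0.7.17, MACS2 2.1.0, kallisto 0.44.0 and the build mm10. The study's methods name other RNA-seq tools, and which made the TPM is not given in the sources used here. The depth is unknown, and peaks were called on 1 library each.

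Groups followed the sample titles. The 71 genes, the gene lists and the function groups were chosen with earlier results of these data known. MatNeu and GMP libraries were compared with limma 3.58.1 (R 4.3.3) on log2(TPM + 1), in a fit over all 3 cell types with a trend in the variance, on the 13061 genes that reached 1 TPM in 3 or more libraries, with Benjamini-Hochberg adjustment at 0.05; counts were not available for a count model. TMM factors, the trimmed mean of log ratios between libraries, were computed from the TPM by the usual formula. On data simulated for this comparison over 13061 genes, 36 of 100 genes changed by 1 and 79 of 100 changed by 2 on the log2 scale were called, with 5 false calls. In the data far more genes were called, 22.8% higher and 54.1% lower, so that the adjustment acts at another p cutoff. The simulation therefore does not give the recovery or the false calls of the comparison itself. Peaks were matched to GENCODE M21 genes when they overlapped the promoter, or the gene and 10 kb on either side, by at least 1 bp, with Python 3.11.15, pandas 2.3.3, numpy 2.4.6 and scipy 1.17.1; figures used matplotlib 3.10.9. Every library is given for the 10 genes with the highest preNeu TPM, the 5 with the largest ratio and the 3 with the largest matNeu minus GMP difference each way; peaks are given for the 5 genes with the strongest CHD4 peak, those with promoter CHD4 in *Gfi1*-/- GMPs and some of those marked in part of the stages. The values of 2 of the 71 genes are not reported here, though counts and medians include them. Further genes given with values (*C1qc*, *Axl*, *Syne1*, *Vcam1* and other members of the function groups) were chosen after their values were seen. Alternatives were TMM scaling, other pseudocounts and filters, leaving out each library, a replicate block, stricter peak thresholds, other windows and any transcript start. The lists of H3K4me3 and GFI1 were not used, since they hold positions beyond the ends of mouse chromosomes, nor were the ATAC-seq lists, which are identical for both cell types.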

Additional observations from a re-analysis of the deposited data

How the results depend on the processing

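The rule itself gave 66 to 74 genes when a library was left out, and 100 after TMM scaling, of which 62 were among the 71. The 9 genes that no longer met the rule after TMM scaling were *Baiap3*, *Hsd11b1*, *Itgb2l*, *Plscr1*, *Ptgir*, *Serpinb6a*, *Stk39*, *Syne1* and *Tmc8*. Counts higher in matNeu cells than in GMPs ran from 24 to 27 without 1 library each, and counts lower from 25 to 29. After TMM scaling 17 genes were lower, against 29. *Hmgn2* and *Ptgs1* were then at -0.01 each. *Chit1*, which had no call, changed sign from -0.05 to 0.0137 after TMM scaling, and ran from -0.15 to 0.10 without 1 library each, with 0.0038 without matNeu 1 or matNeu 2. Of 213 alternatives for 18 genes, 204 kept direction and side of the threshold; the causes of the others were not tested. With any transcript start, chosen after seeing the data, 7 promoters held CHD4 in *Gfi1*-/- GMPs, against 4. With a -log10 q of at least 5, 27 promoters had H3K4me2 in GMPs, against 56. With equal numbers of CHD4 peaks, 73.5% of WT peaks were kept, against 19.3%. Each ChIP value rests on 1 library of unknown depth.

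GMP and matNeu libraries of the same number share only that number: the correlations of their deviations were 0.0274, 0.00285 and 0.0559. With the replicate block, 26 genes were higher and 28 lower.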

Other observations

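Markers of other cell types were summed in each RNA-seq library. Those of T and NK cells were at 463 to 613 TPM in GMP, 216 to 253 TPM in preNeu and 9.65 to 19.5 TPM in matNeu libraries, those of eosinophils at 927 to 1198, 90.9 to 113 and 39.5 to 58.4 TPM, and those of basophils and mast cells at 565 to 722, 313 to 496 and 2.54 to 15.1 TPM. B cell markers were at 82.6 to 96.8, 31.4 to 55.7 and 66.7 to 143 TPM, erythroid markers at 23.6 to 36.3, 20.6 to 37.9 and 8.15 to 32.5 TPM, megakaryocyte markers at 35.4 to 50.5, 5.96 to 10.003 and 5.53 to 8.29 TPM, dendritic cell markers at 12.7 to 16.97, 3.63 to 7.52 and 11.7 to 17.9 TPM, and markers of stroma and endothelium at 0 to 0.720, 0.473 to 3.01 and 1.38 to 7.57 TPM. Several of these sums rest on few genes. In preNeu cells 5 of 7 T and NK cell, 3 of 8 eosinophil and 6 of 10 erythroid markers were under 1 TPM. So were 3 of 5 dendritic cell and 4 of 5 stroma and endothelium markers, but only 1 of 10 B cell and 1 of 5 megakaryocyte markers. A sum thus does not show that the cells of its list were present.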
